A study of Mus musculus with 8 samples.

Results

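Gpnmb+ Fabp5+ macrophages were examined among the CD45+/CD11b+ myeloid cells sorted from the mouse sciatic nerve 15 weeks after injury. Members were chosen by their UMI counts. A cell barcode was a member if it held at least 500 genes, under 10% mitochondrial UMIs, at least 8 UMIs of Gpnmb, at least 3 UMIs of Fabp5 and at most 2 UMIs of Cd163, Lyve1 and Cbr2 together. A UMI (unique molecular identifier) marks 1 captured transcript, and the last 3 genes mark resident macrophages of the nerve. At 15 weeks the rule was met by 910 of the 9133 barcodes in the series, or 910 of the 4211 barcodes past the filters at that time. Of these, 715 came from the crush library (29.3% of its 2442 barcodes) and 195 from the PSNL library (11.02% of 1769). The other 3301 barcodes of the same libraries served for comparison.

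All animals were C57BL/6JolaHsd mice bought at 7 weeks of age. In PSNL (partial sciatic nerve ligation) part of the nerve is tied off, whereas in the crush model the whole nerve is pressed with forceps. Hashtag antibodies, which carry a barcode for the sample of origin, marked 3 crush samples (F1 and F2, female, and M1, male) and 4 PSNL samples (F1, F2, M1 and M2) at 15 weeks. Whether a hashtag stood for 1 mouse or for several pooled mice is not given in the sources used here, so p-values measure the spread between hashtag samples only. Each injury was read in its own library, so injury and library cannot be told apart. No sham sample of the later time was analysed here. The 1 week libraries held a crush female and male with a sham male, and a PSNL female and male with a sham female, and Ly6G+ cells were excluded from the sort at that time only.

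Gpnmb encodes a transmembrane glycoprotein of lysosomes and the cell surface, and Fabp5 a cytosolic carrier of fatty acids. Macrophages that take up large amounts of lipid, as in fat tissue, plaques of the artery wall and demyelinated nerve, are known to express both. After nerve injury, macrophages engulf myelin debris, break it down in lysosomes, store cholesterol and fatty acids as esters in droplets, and export cholesterol on apolipoprotein E through ABC transporters. Transcription factors of the MiT/TFE family switch on many lysosomal genes by binding short DNA motifs near gene starts, of which CACGTG is the best known. Gpnmb and Fabp5 lie on chromosome 6 (chr6:49036546-49070929, plus strand) and chromosome 3 (chr3:10012548-10016607, plus strand) of GRCm38 in GENCODE M21.

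The promoters of 3 genes are shown because lysosomal genes moved together in these cells. The stretch is the 250 bases before the RefSeq start (GRCm38.p6), 5′ to 3′ on the strand of the gene, with matches to the motif CACGTG, or to its relative TCATGTG, on either strand in capitals. Gpnmb, chr6:49036268-49036517, plus strand, held neither motif. Ctsd, chr7:142387828-142388077, minus strand, encodes the lysosomal protease cathepsin D and held 2 matches to CACGTG. Gla, chrX:134601006-134601255, minus strand, encodes lysosomal alpha-galactosidase and held 2 matches to the first motif and 1 to the second.
Gpnmb: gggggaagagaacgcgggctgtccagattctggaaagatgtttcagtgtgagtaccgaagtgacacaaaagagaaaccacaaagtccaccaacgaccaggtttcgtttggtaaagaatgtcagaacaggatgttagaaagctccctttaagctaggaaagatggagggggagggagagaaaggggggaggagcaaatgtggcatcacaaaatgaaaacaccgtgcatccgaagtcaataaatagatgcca
Ctsd: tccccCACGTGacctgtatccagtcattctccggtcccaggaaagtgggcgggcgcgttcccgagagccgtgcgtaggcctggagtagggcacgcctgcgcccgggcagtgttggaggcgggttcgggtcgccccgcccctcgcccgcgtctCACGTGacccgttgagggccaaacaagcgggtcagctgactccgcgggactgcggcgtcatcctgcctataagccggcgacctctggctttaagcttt
Gla: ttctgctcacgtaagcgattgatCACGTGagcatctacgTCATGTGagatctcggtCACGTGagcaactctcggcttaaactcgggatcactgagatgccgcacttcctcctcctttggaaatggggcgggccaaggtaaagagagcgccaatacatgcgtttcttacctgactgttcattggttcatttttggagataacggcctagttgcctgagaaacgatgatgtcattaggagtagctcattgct

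The search covered the whole RefSeq window, 250 bases before to 50 bases after the start, on both strands, and no 2 matches shown overlap. Of the 35 lysosomal genes listed for this comparison, 26 had a window, and 10 of these held the first motif (38.5%) against 12.4% of the 8826 tested genes with a window and 8.09% of all 27025 genes. The second motif was in 7 of the 26 (26.9%), against 2.84% of the tested genes and 4.31% of all genes. Over windows in place of genes, 7.15% of all 32851 windows held the first motif and 3.77% held the second. The first motif was in 14.4% of the windowed genes higher in members and in 9.93% of those lower. These counts describe letters in a window, and binding was not measured.

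The members were macrophages by their marker genes, whereas 1 of the other label markers was not raised. Itgax, which encodes the integrin CD11c, was higher in members in 7 of 7 samples (31.002 to 274 CPM in members (median 80.3), 11.5 to 59.8 CPM in the others (median 26.4), edgeR log2 difference 1.94 ± 0.199 SE, adjusted p = 3.23e-07). Lpl, which encodes lipoprotein lipase, was at 377, 18.6 and 1312 CPM in crush F1, F2 and M1, and 68.2, 1351, 25.7 and 83.6 CPM in PSNL F1, F2, M1 and M2. In the others Lpl was at 226, 102 and 546 CPM in crush F1, F2 and M1, and 201, 221, 219 and 269 CPM in PSNL F1, F2, M1 and M2. Lpl was thus above the others in 3 of the 7 samples and below them in 4, with a log2 difference of -0.03 ± 0.469 SE and an adjusted p of 0.978 in edgeR. Its sign turned between alternatives. Because lipid itself was not measured, the cells are called here by the 2 genes of the rule. CPM are the UMIs of a gene divided by the UMIs of all genes in the same set of barcodes, scaled to a total of 1000000.

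Of 11 macrophage identity genes, 6 were higher in members (among them C1qa, C1qb, C1qc, Cd68 and Mertk) and 3 lower (Csf1r, Itgam and Ptprc). Against others of like depth, and against others with the same limit on resident genes, 5 were higher, and C1qa was no longer called (adjusted p = 0.0604 and 0.0825 in edgeR). C1qa was above the others in 6 of 7 samples. Others of like depth were those within the middle range of UMI counts of the members of their sample. Depth was only brought closer by this, since members stayed deeper in each of the 7 samples. The medians were 12860.5 against 10128 UMIs in crush M1 and 9615 against 8845 UMIs in crush F1. The lysosomal marker Cd68 was at 1032 to 1334 CPM in members (median 1187) and 332 to 530.0 CPM in the others (median 467). Csf1r, the receptor for macrophage colony-stimulating factor, was at 455 to 626 CPM in members (median 559.6) and 704 to 946 CPM in the others (median 843), and its members and others did not overlap. Defining markers of dendritic cells and monocytes were low in members. The summed level of the dendritic cell markers, 6 of 6 tested being lower, was 0 to 13.02 CPM in members and 118 to 279.99 CPM in the others, and that of the monocyte markers, 5 of 6 being lower, 0 to 119 against 269 to 637 CPM. Against others of like depth, 4 dendritic cell and 3 monocyte markers were lower. The Schwann cell and myelin markers, of which 1 of 4 tested was higher, summed to 271 to 439.8 CPM in members and 217 to 268 CPM in the others. Most of that sum was Pmp22 (215 to 332 CPM in members (median 279), 99.7 to 166 CPM in the others (median 136)). Cd3e and Sall1 had no UMI in members of any sample. Of 3 tested markers of T, NK and B cells, Cd4 was higher in members, and Gzma and Nkg7 were lower. The 10 markers of that list summed to 10.616 to 85.361 CPM in members and 24.973 to 57.455 CPM in the others. Of 5 tested neutrophil markers, Csf3r was higher in members, and Mmp9, Retnlg and S100a9 were lower. Xist was at 828 CPM or more in members of the 4 female samples and at most 0.254 CPM in the 3 male samples, as their labels say.

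The share of members differed widely between hashtag samples, and 1 crush sample held most of them. Members made up 12.8% of crush F1 (54 of 423 barcodes, exact 95% interval 9.74 to 16.3%), 9.17% of crush F2 (31 of 338, 6.32 to 12.8%) and 39.9% of crush M1 (598 of 1498, 37.4 to 42.5%). In PSNL they made up 8.45% of F1 (24 of 284, 5.49 to 12.3%), 3.00% of F2 (14 of 466, 1.65 to 4.99%), 13.1% of M1 (66 of 503, 10.3 to 16.4%) and 22.1% of M2 (80 of 362, 17.9 to 26.7%). The intervals cover counting error only. Crush M1 alone held 598 of the 683 crush members with a hashtag. The mean share was 20.6 ± 16.8% (SD, n = 3) in crush and 11.7 ± 8.09% (SD, n = 4) in PSNL, and the injuries overlapped (difference -8.95 points, exact permutation test, two-sided p = 0.457, smallest possible 0.0571). Without crush M1 the difference was 0.700 points in the opposite direction.

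The 3 male samples (13.1%, 22.1% and 39.9%) lay above the 4 female samples (3.00% to 12.8%), though PSNL M1 exceeded crush F1 by little. The difference was 16.7 points (25.05 ± 13.6%, n = 3, against 8.35 ± 4.03%, n = 4, exact permutation test, two-sided p = 0.0571, the smallest this design allows). Under some other limits of the rule or of hashtag assignment the exact permutation p was 0.114, and the comparison was chosen after the shares were seen. A share of barcodes also depends on how many other myeloid cells were sorted.

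**Figure D1:**
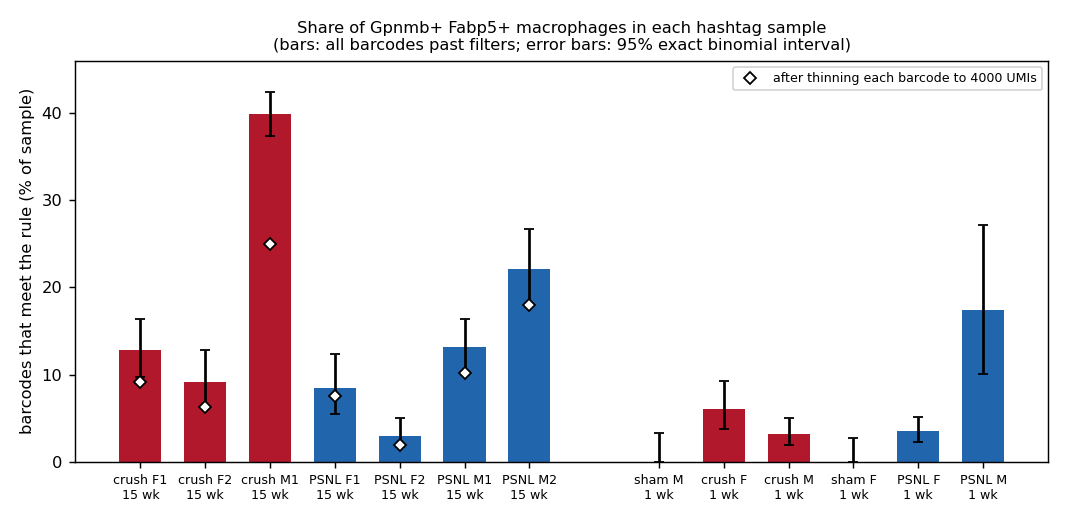
Share of barcodes that met the rule in each hashtag sample, in % of the barcodes past the filters, at 15 weeks (7 samples, left) and 1 week (6 samples, right). Bars are the counted share with its exact 95% binomial interval, red for crush and blue for PSNL, and diamonds give the 15 week share after each barcode was thinned to 4000 UMIs. Crush M1 stands at 39.9% and 24.9% after thinning, and both sham samples at 0.

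Members were deeper than the other barcodes, which a rule on UMI counts favours. The median was 12552 UMIs in crush members and 6715 in the others, and 10951 and 6657 in PSNL. After each barcode was thinned to 4000 UMIs and the same rule applied, the shares were 9.12%, 6.34% and 24.9% in crush F1, F2 and M1 and 7.56%, 1.90%, 10.1% and 17.9% in PSNL F1, F2, M1 and M2. Crush M1 remained the highest and PSNL F2 the lowest. Barcodes under 4000 UMIs were left out there, 1 member and 331 others in crush and 1 member and 328 others in PSNL. Hashtag doublets made up 4.06% of the crush members and 5.64% of the PSNL members, against 6.02% and 8.26% of the others, and were left out of the sums by sample. Each library shared 1 to 3 barcodes with each other library.

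The rule itself fixed the levels of its 5 genes, which are given as a description. Gpnmb was at 3157, 3149 and 3117 CPM in crush F1, F2 and M1, and 2403, 2583, 3466 and 3639 CPM in PSNL F1, F2, M1 and M2 in members. In the others it was between 54.3 and 262 CPM. Fabp5 was at 1605 to 3351 CPM in members (median 2260.0) and 48.9 to 279 CPM in the others (median 135). Members held 90.8% of all Gpnmb UMIs of the crush library and 84.8% of those of the PSNL library, while holding 41.3% and 16.1% of all UMIs. Just inside the limit, 50 crush and 16 PSNL members had 8 or 9 Gpnmb UMIs. Just outside it, 64 and 13 barcodes had 6 or 7. The limit on Cd163, Lyve1 and Cbr2 alone removed 11 crush and 10 PSNL barcodes.

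Gpnmb UMIs were also found in barcodes with markers of other cells. Of the barcodes with at least 3 UMIs of the dendritic cell markers Flt3, Cd209a and Zbtb46, 8.02% of 162 in crush and 11.9% of 176 in PSNL had a Gpnmb UMI, at median depths of 12138 and 10884 UMIs. At least 8 UMIs were found in 1.23% and 3.41% of them, and these barcodes were not cleared of members, of which they held 2 and 4. Of the other barcodes with at least 3000 UMIs, with or without a single hashtag, 38.8% in crush and 22.3% in PSNL had a Gpnmb UMI. By sample, over barcodes of any depth with a single hashtag, this share was 47.3% in crush M1 and 14.2 to 27.3% in the other 6. Among barcodes with at least 3 UMIs of Cd163, Lyve1 and Cbr2 it was 10.2% in crush and 18.4% in PSNL.

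Levels differed between steps of the Gpnmb count on both sides of the limit of 8 UMIs. Among the barcodes with at most 2 UMIs of Cd163, Lyve1 and Cbr2, the median Ctsd level over the 7 samples was 562 CPM without a Gpnmb UMI, 1729 CPM at 1 to 3 UMIs, 2794 at 4 to 7, 3916 at 8 to 15, 5088 at 16 to 31 and 7617 at 32 or more. Fabp5 went from 89.7 to 3640.2 CPM over the same steps. Spp1, which encodes osteopontin, had medians of 45.3, 76.1, 203, 201, 484 and 809.9 CPM. In the opposite direction, the median of the MHC class II gene H2-Aa went from 7700.4 CPM without a Gpnmb UMI to 223 CPM at 32 or more. In that highest step the samples ranged from 41.7 to 3279 CPM. The top value was that of crush M1, which held 257 of the 353 barcodes of the step. Mrc1 had a median of 1116 CPM in the lowest step, 1712 CPM in the next and 321 CPM in the highest. Itgax was high in the last step only, with medians of 28.8 CPM without a Gpnmb UMI, 23.9 at 8 to 15, 24.1 at 16 to 31 and 142 at 32 or more. The median depth of these barcodes also went up, from between 5799.5 and 6622.5 UMIs in the lowest step to between 11662 and 15262 UMIs in the highest, and its part in the trend was not tested.

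**Figure D2:**
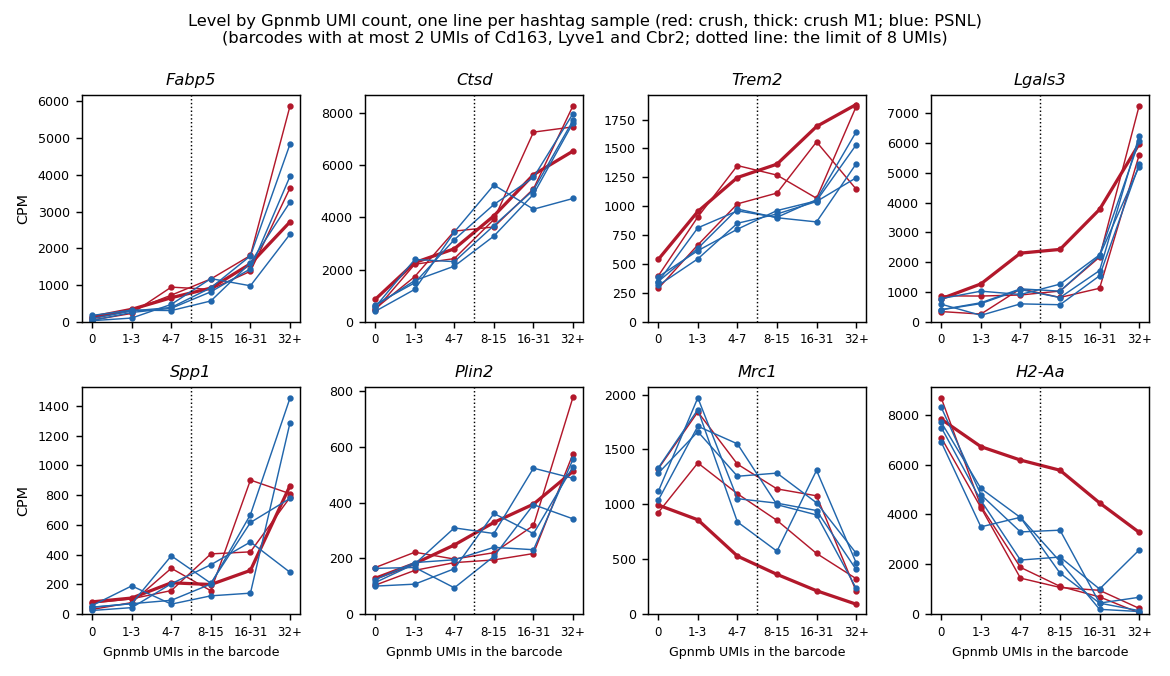
Level in CPM (vertical axes) of 8 genes by the number of Gpnmb UMIs in the barcode (horizontal axes, 6 steps), with 1 line per hashtag sample, red for crush and blue for PSNL, and crush M1 as the thick line. Fabp5, Ctsd, Trem2 and Lgals3 end above their lowest step in all 7 samples, H2-Aa and Mrc1 end below it, the dotted line is the limit of 8 UMIs, and crush M1 keeps 3279 CPM of H2-Aa in the highest step.

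Counts were then summed over members and over others within each hashtag sample and compared with edgeR, with the sample as a block. Of the 11221 genes outside the rule, 1589 were higher in members (14.2%) and 1917 lower (17.1%), together 31.2%, at an adjusted p under 0.05. In 409 of the higher genes (3.64% of those tested) and 776 of the lower (6.92%), the 7 member values and the 7 other values did not overlap. Genes that vary with Gpnmb within macrophages had to differ between these sets, so the p-values describe how steady a difference was over samples. The others also held barcodes with dendritic cell and monocyte markers, and the part of this mix in the differences was not tested. Gene lists are read below against 14.2% and 17.1%, and the median log2 difference of all genes was -0.03.

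Lysosomal genes were higher almost throughout. Of 35 genes for lysosomal enzymes, membrane proteins and the proton pump, 33 were higher and none lower, with a median log2 difference of 1.04, and 2 were not called. Summed over the list, the level was 34269 to 41657 CPM in members and 12723 to 19140 CPM in the others. Ctsd, the aspartic protease cathepsin D, was at 6279.6, 5757 and 5834 CPM in crush F1, F2 and M1, and 6216, 4421, 6230.0 and 5969 CPM in PSNL F1, F2, M1 and M2. The others were at 867, 954 and 1697 CPM in crush F1, F2 and M1, and 932, 604, 956 and 925 CPM in PSNL F1, F2, M1 and M2. Members thus exceeded the others in each sample by a wide margin (log2 difference 2.69 ± 0.108 SE, adjusted p = 2.01e-12), and PSNL F2 had the lowest member level. Ctsb, a cysteine protease, was at 4696 to 6558 CPM in members (median 5456) and 1411 to 2532 CPM in the others (median 1730.5) (log2 difference 1.70 ± 0.0845 SE, adjusted p = 2.23e-11). Atp6v0d2, a subunit of the proton pump known from osteoclasts and lipid-rich macrophages, was at 563 to 898 CPM in members (median 637) and 13.7 to 189 CPM in the others (median 50.8) (log2 difference 3.81 ± 0.241 SE, adjusted p = 6.10e-10). The tetraspanin Cd63 of the lysosomal membrane was at 1698 to 2387 CPM in members (median 1948) and 432 to 879 CPM in the others (median 638).

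The cysteine protease Ctsk, the collagen-degrading enzyme of osteoclasts, had the largest log2 difference by the rule for naming genes (log2 difference 5.00 ± 0.350 SE, adjusted p = 2.09e-09). Its level in members was 129, 61.9 and 119 CPM in crush F1, F2 and M1, and 3.10, 17.0, 6.77 and 56.4 CPM in PSNL F1, F2, M1 and M2, against at most 7.50 CPM in the others. Crush members and PSNL M2 were high and PSNL F1, F2 and M1 low, and after thinning to 3000 UMIs at most 12.2% of the members of any sample had a Ctsk UMI. Of 7 osteoclast genes, 3 were higher (Acp5, Atp6v0d2 and Ctsk) and 3 lower (Dcstamp, Mmp9 and Tnfrsf11a). Acp5, tartrate-resistant acid phosphatase, was at 10.8 to 72.4 CPM in members (median 21.2) and 6.25 to 18.4 CPM in the others (median 7.56).

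Of 14 MiT/TFE factors and their partners, 9 were higher (Fnip1, Fnip2, Gabarapl1, Map1lc3b, Mitf, Rragc, Rragd, Sqstm1 and Tfec) and Uvrag was lower, with a median of 0.52. Fnip2, a partner of folliculin in nutrient sensing, was at 431 to 1051 CPM in members (median 498) and 119 to 269.6 CPM in the others (median 177) (log2 difference 1.69 ± 0.164 SE, adjusted p = 1.53e-07). Rragd, a GTPase of the lysosomal surface, was at 15.5 to 38.9 CPM in members (median 27.1) and 2.16 to 8.34 CPM in the others (median 4.50) (log2 difference 2.41 ± 0.263 SE, adjusted p = 6.95e-07). Tfeb and Tfe3 themselves were not called.

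**Figure D3:**
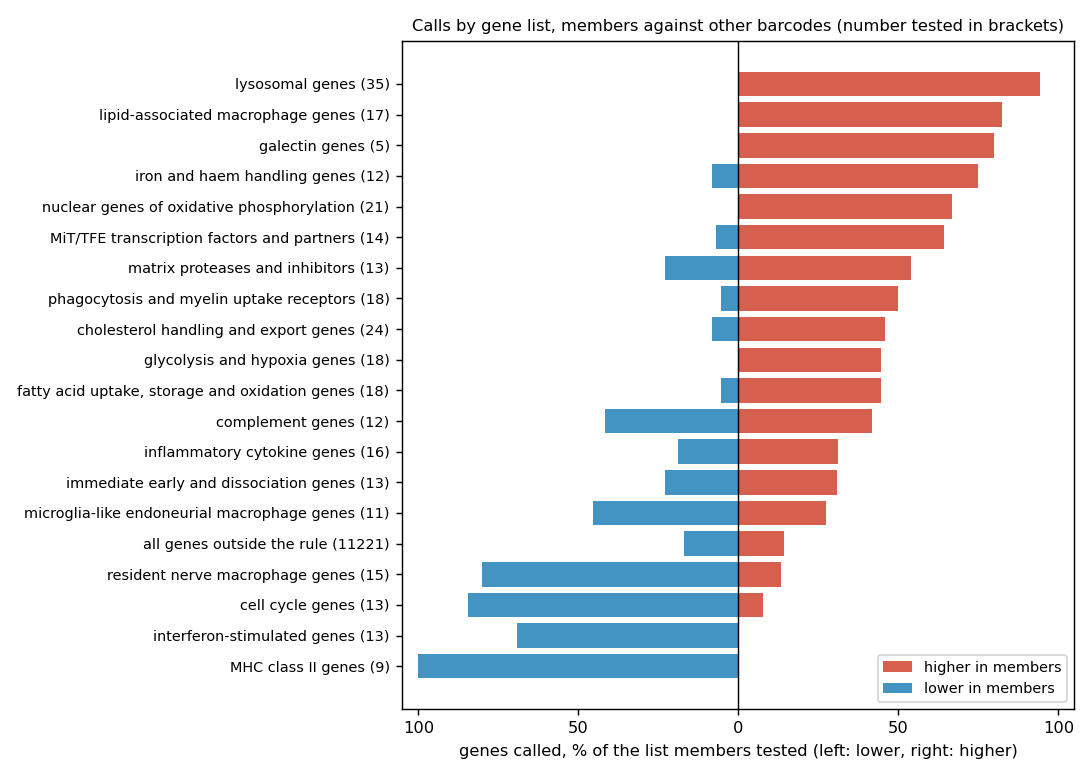
Genes of each list called by edgeR in members against other barcodes, in % of the list members tested (horizontal axis, red to the right for higher and blue to the left for lower), with the number tested in brackets. Lysosomal genes lead with 33 of 35 higher and MHC class II genes close the order with 9 of 9 lower, while 14.2% and 17.1% of all genes were called.

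Genes of cholesterol handling moved in part. Of 24, 11 were higher (among them Apoe, Abcg1, Npc1, Npc2, Nceh1, Soat1 and Nr1h3), 2 were lower (Ch25h and Cyp27a1, which make oxysterols) and 11 were not called, with a median of 0.54. Apoe, the apolipoprotein that carries exported cholesterol, was at 48668, 55189 and 59788 CPM in crush F1, F2 and M1, and 47804, 31945, 49143 and 44990.0 CPM in PSNL F1, F2, M1 and M2. In the others it was at 16951, 21935 and 35069 CPM in crush F1, F2 and M1, and 21069, 14875, 23400.0 and 20380.0 CPM in PSNL F1, F2, M1 and M2. The sets overlapped, since the others of crush M1 had more Apoe than the members of PSNL F2, but members were higher within each of the 7 samples (log2 difference 1.24 ± 0.0897 SE, adjusted p = 3.01e-09). Soat1, which esterifies cholesterol for storage, was at 266 to 407 CPM in members (median 343) and 119.8 to 191 CPM in the others (median 136). Nceh1, a hydrolase of cholesteryl esters, was at 199.9 to 350.5 CPM in members (median 248) and 74.6 to 132 CPM in the others (median 82.9), and Npc1, which moves cholesterol out of lysosomes, at 170.4 to 253 CPM in members (median 199.9) and 66.7 to 112 CPM in the others (median 80.0). Nr1h3, the liver X receptor alpha, was low but higher in members (8.13 to 35.6 CPM in members (median 11.3), 0.99922 to 10.0 CPM in the others (median 3.56)). The cholesterol exporter Abca1 was called (log2 0.37 ± 0.115, adjusted p = 0.0182), but 5 of 18 alternatives lost that call, with crush F2 left out among them.

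Of 18 fatty acid genes, 8 were higher (Fabp3, Fabp4, Hilpda, Plin2, Plin3, Pnpla2, Pparg and Slc27a1) and Acsl1 was lower, with a median of 0.40. Plin2, the coat protein of lipid droplets, was at 469, 349.6 and 446 CPM in crush F1, F2 and M1, and 326, 396, 470.2 and 395 CPM in PSNL F1, F2, M1 and M2. The others were at 169, 116 and 173 CPM in crush F1, F2 and M1, and 141, 108, 135 and 132 CPM in PSNL F1, F2, M1 and M2, so that no value of the others reached the lowest member value (log2 difference 1.64 ± 0.0949 SE, adjusted p = 1.72e-10). Fabp4, the fatty acid carrier of adipocytes and macrophages, was at 279.6, 161 and 409 CPM in crush F1, F2 and M1, and 118, 435, 176 and 335 CPM in PSNL F1, F2, M1 and M2. The others had at most 115 CPM, in PSNL M2, and 39.0 CPM or less in the other samples (log2 difference 4.20 ± 0.407 SE, adjusted p = 1.58e-07). Fabp3 was low and higher in members (3.09 to 24.8 CPM in members (median 15.5), 1.48 to 2.89 CPM in the others (median 2.00)). Mgll, the lipase that splits monoacylglycerol, was at 83.2 to 326 CPM in members (median 198) and 3.86 to 41.0 CPM in the others (median 13.5) (log2 difference 3.85 ± 0.279 SE, adjusted p = 3.23e-09).

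The list of lipid-associated macrophage genes held 17 tested genes outside the rule, of which 14 were higher and none lower, with a median of 1.63. The list was chosen for such cells with these results known, so its direction is not independent evidence. Trem2, a receptor for lipids and apolipoproteins, was at 1270.4, 1479 and 1748 CPM in crush F1, F2 and M1, and 1069.6, 1108, 1348 and 1287 CPM in PSNL F1, F2, M1 and M2. The others had 378, 523 and 769 CPM in crush F1, F2 and M1, and 384, 330.4, 436 and 442 CPM in PSNL F1, F2, M1 and M2, and the sets did not overlap (log2 difference 1.63 ± 0.0857 SE, adjusted p = 4.55e-11). Lgals3, galectin-3, was at 2756 to 4720.5 CPM in members (median 3508) and 384 to 1203 CPM in the others (median 512) (log2 difference 2.57 ± 0.101 SE, adjusted p = 2.01e-12). Spp1 was at 367 to 980.0 CPM in members (median 585) and 28.5 to 113 CPM in the others (median 61.3) (log2 difference 3.41 ± 0.163 SE, adjusted p = 1.73e-11), and between 42.6% (crush M1) and 63.3% (PSNL M2) of members had an Spp1 UMI after thinning to 3000 UMIs. Lipa, the lysosomal lipase, and the tetraspanin Cd9 were higher as well (log2 1.63 ± 0.0861 and 1.44 ± 0.0929). Clec7a and Cst7 were not tested, and Cst7 was at most 2.17 CPM in members. Of 5 galectin genes, 4 were higher, with Lgals1 at 829 to 1377 CPM in members (median 1033) and 388 to 717 CPM in the others (median 501).

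**Figure D4:**
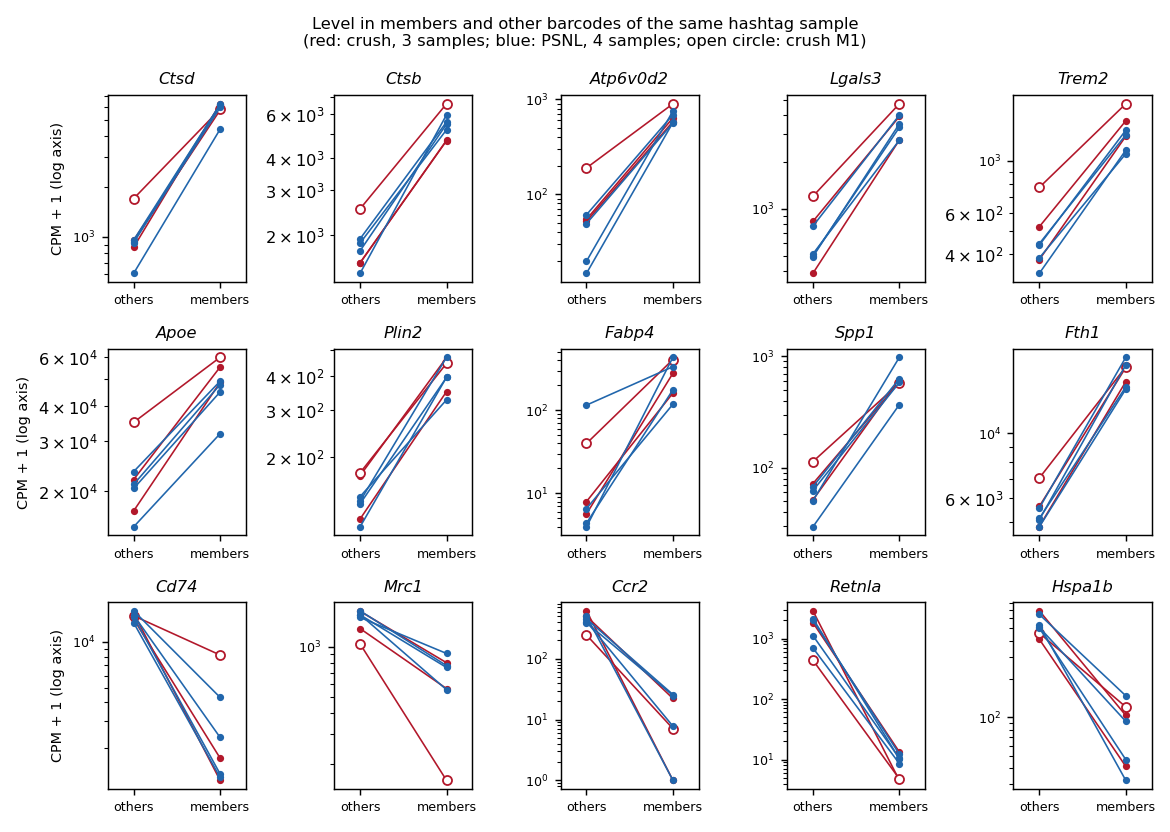
Levels of 15 genes in the other barcodes (left points) and in members (right points) of the same hashtag sample, as CPM + 1 on log axes, with red lines for 3 crush samples, blue lines for 4 PSNL samples and open circles for crush M1. All lines climb in the upper 2 rows and decline in the lower row, Cd74 and Mrc1 with a wide spread in members.

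Genes of phagocytosis, iron handling and energy metabolism were also more often higher than lower. Of 18 phagocytosis and myelin uptake genes, 9 were higher and Timd4 was lower. Lrp1, the receptor for myelin debris and apolipoprotein E, was at 405 to 758 CPM in members (median 496) and 207 to 447 CPM in the others (median 265) (log2 difference 0.99 ± 0.0845 SE, adjusted p = 2.84e-08), and Mertk, the receptor for dying cells, had a log2 difference of 0.87 ± 0.100. Among 12 genes that handle iron and haem, 9 rose, and Cp, ceruloplasmin, was lower (log2 -2.85 ± 0.200). Fth1 and Ftl1, the ferritin chains, were at 14115 to 18116 CPM in members (median 16738) and at 7337 to 9276 CPM in members (median 8652). In the others, Fth1 was at 4799.6 to 7037 CPM (log2 difference 1.65 ± 0.0837 SE, adjusted p = 2.94e-11) and Ftl1 at 3412 to 4938 CPM. Of 21 nuclear genes of oxidative phosphorylation, 14 were higher by a median of 0.32 over the list, but 9 when the others were limited to barcodes of like depth. Of 18 glycolysis and hypoxia genes, 8 were higher, with Aldoa, aldolase A, at 337 to 367 CPM in members (median 352) and 156 to 223 CPM in the others (median 172).

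Of 13 genes for matrix proteases and their inhibitors, 7 were higher and 3 lower. Mmp12, macrophage elastase, was at 313, 43.3 and 1427 CPM in crush F1, F2 and M1, and 34.1, 1911, 199 and 387 CPM in PSNL F1, F2, M1 and M2 (log2 difference 3.18 ± 0.289 SE, adjusted p = 6.48e-08). The levels in crush M1 and PSNL F2 were over 3 times those of any other sample. The others reached 288 CPM in crush M1 and 87.5 CPM or less elsewhere. Timp2, an inhibitor of matrix proteases, was more even (396 to 781 CPM in members (median 688), 274 to 371 CPM in the others (median 327)), while Mmp9, gelatinase B, was lower (0 to 3.09 CPM in members (median 1.09), 34.0 to 71.8 CPM in the others (median 45.4), log2 -6.08 ± 0.314).

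MHC class II genes were lower in every case. All 9 tested genes of the list were lower, with a median of -2.64, and their sum was 2874 to 18874 CPM in members against 30697 to 35863 CPM in the others. Cd74, the invariant chain, was at 1716, 1225 and 8201 CPM in crush F1, F2 and M1, and 1280.4, 4313, 1351 and 2349.7 CPM in PSNL F1, F2, M1 and M2 (log2 difference -2.64 ± 0.258 SE, adjusted p = 1.65e-07). The others lay between 13383 and 16037 CPM. Crush M1 kept the highest member level and PSNL F2 the next, and crush F2 had the lowest. H2-Aa, an alpha chain, was at 731, 625 and 4169 CPM in crush F1, F2 and M1, and 639, 1905, 508 and 1188 CPM in PSNL F1, F2, M1 and M2, against 5673 to 7028 CPM in the others (median 6494).

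Resident macrophage genes were mostly lower, as the limit on 3 of them would favour. Of the 15 tested outside the rule, 12 were lower and 2 higher (Gas6 and Selenop), with a median of -1.80. When the others were limited to barcodes that also had at most 2 UMIs of Cd163, Lyve1 and Cbr2, 12 genes were tested, 7 were lower and 2 higher, and the median was -0.73. The gene values that follow are against all others, without that limit, so their differences and p-values carry the effect of the rule. Mrc1, the mannose receptor, was at 561, 801 and 158 CPM in crush F1, F2 and M1, and 750.2, 910.1, 769.6 and 552 CPM in PSNL F1, F2, M1 and M2, against 1038 to 1636 CPM in the others (median 1548) (log2 difference -1.25 ± 0.149 SE, adjusted p = 2.26e-06). The chemokine Pf4 was at 136 to 455 CPM in members (median 316) and 657 to 1325 CPM in the others (median 1008) (log2 difference -1.61 ± 0.120 SE, adjusted p = 4.34e-09). The prostaglandin dehydrogenase Hpgd was at 45.2 to 136 CPM in members (median 124) and 346 to 555 CPM in the others (median 416), and the endocytic adaptor Dab2 at 125 to 671 CPM in members (median 482) and 597 to 1013 CPM in the others (median 872). Of 11 genes of microglia-like macrophages, 3 were higher (Olfml3 and Trem2 among them) and 5 lower (Cx3cr1, P2ry12, Siglech, Sparc and Tmem119).

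Of 13 interferon-stimulated genes, 9 were lower and none higher, with a median of -1.02. Isg15 was low in both sets (3.94 to 22.6 CPM in members (median 6.19), 8.77 to 68.9 CPM in the others (median 15.5)). Of 13 cell cycle genes, 11 were lower, with a median of -3.05, and Pcna was higher. Against others of like depth, 8 were lower. Top2a, the topoisomerase of dividing cells, had UMIs in members of 2 samples only and was at most 1.77 CPM, against 5.04 to 46.5 CPM in the others (median 29.4) (log2 difference -5.24 ± 0.326 SE, adjusted p = 4.87e-10). Mki67 was at 0 to 5.65 CPM in members (median 2.17) and 8.30 to 49.5 CPM in the others (median 21.8). Of 13 immediate early and dissociation genes, 4 were higher (Atf3, Egr1, Fos and Junb) and 3 were lower, all heat-shock genes (Dnajb1, Hspa1a and Hspa1b). Hspa1b was at 31.002 to 147 CPM in members (median 92.1) and 411 to 688 CPM in the others (median 509.6) (log2 difference -2.61 ± 0.186 SE, adjusted p = 2.61e-09), and the part of cell handling in this difference was not tested.

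Of 12 complement genes, 5 were higher (the C1q genes, C3ar1 and Itgax) and 5 were lower (C4b, C5ar1, Cfp and Itgam among them). Against others of like depth, 4 were higher and 6 lower, and against others with the same limit on resident genes 4 and 4. C3ar1, the receptor for C3a, was at 372 to 583 CPM in members (median 452) and 210.3 to 352 CPM in the others (median 282). Of 16 cytokine genes, 5 were higher (Cxcl2, Il1a, Osm, Tgfb1 and Tnfaip3) and 3 lower (Cxcl10, Il1b and Nlrp3), the latter a share near the 17.1% of all genes. Il1a was low but did not overlap (5.65 to 26.9 CPM in members (median 15.5), 0.297 to 1.84 CPM in the others (median 0.925), log2 difference 4.02 ± 0.330 SE, adjusted p = 1.64e-08). Cxcl2, a chemokine for neutrophils, was at 853, 458 and 232 CPM in crush F1, F2 and M1, and 747, 5.65, 201 and 71.6 CPM in PSNL F1, F2, M1 and M2, and it was above the others in 5 of 7 samples only (log2 difference 2.504 ± 0.407 SE, adjusted p = 8.16e-05). The high levels in crush F1 and PSNL F1 came mostly from few barcodes. In the thinned counts of crush F1, the 9 members with an Lpl UMI had 3333 CPM and the 45 without had 7.41 CPM. In PSNL F1, the 3 with had 4778 CPM and the 21 without had 31.7 CPM. PSNL M1 went the other way (0 CPM in 2 members and 208 CPM in 64), and crush F2, at 323 CPM, had no member with Lpl. This split is described below and was not tested.

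Among the largest differences were genes outside these lists. Cdo1, cysteine dioxygenase, was at 22.6 to 131 CPM in members (median 43.3) and 1.19 to 4.05 CPM in the others (median 3.00) (log2 4.07 ± 0.259). The stress-induced cytokine Gdf15 was at 83.2 to 402 CPM in members (median 239.9) and 2.37 to 69.2 CPM in the others (median 11.7) (log2 4.04 ± 0.297). In the thinned counts of PSNL F1, the 3 members with an Lpl UMI had 2444 CPM of Gdf15 and the 21 without had 79.4 CPM. PSNL M1 went the other way (0 CPM in 2 members and 161 CPM in 64). Shisa9 was at 65.1 to 195 CPM in members (median 92.0) and 0.506 to 52.8 CPM in the others (median 6.47), and C77080 at 52.1 to 141 CPM in members (median 96.1) and 3.37 to 12.3 CPM in the others (median 4.56). The largest falls were led by Aff3 (log2 -7.86 ± 0.316), with UMIs in members of 2 samples only. Retnla, a secreted protein of alternatively activated macrophages, was at 3.54, 12.4 and 3.81 CPM in crush F1, F2 and M1, and 9.30, 11.3, 9.48 and 7.60 CPM in PSNL F1, F2, M1 and M2, against 438 to 2872 CPM in the others (median 1834) (log2 difference -7.13 ± 0.199 SE, adjusted p = 1.28e-14). Ccr2, the chemokine receptor of monocytes, was at 0 to 24.8 CPM in members (median 6.77) and 245 to 615 CPM in the others (median 454) (log2 -4.93 ± 0.243). The lectins Mgl2 and Cd209a, the chemokine Ccl24, Siglech, Cmah, Cd226 and Mmp9 made up the rest, with log2 differences from -6.21 (Cd226) to -4.37 (Ccl24). Ccr2 and Cd209a are markers of monocytes and dendritic cells, which the others included, and the part of this mix was not tested.

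For several genes the level in members was highest or lowest in crush M1. Mfge8, a bridge between dying cells and macrophages, was at 65.5, 235 and 1051 CPM in crush F1, F2 and M1, and 31.002, 11.3, 232 and 466 CPM in PSNL F1, F2, M1 and M2. It was at most 27.4 CPM in the others, and 6 of 7 samples were higher in members (log2 difference 3.88 ± 0.417 SE, adjusted p = 5.84e-07). Abca1 was at 292, 436 and 1399.5 CPM in crush F1, F2 and M1, and 459, 509, 408 and 255 CPM in PSNL F1, F2, M1 and M2, but the others of crush M1 also had 1008 CPM, against 386 CPM or less in the others of the remaining samples. Crush M1 members had 158 CPM of Mrc1, where the lowest of the other 6 samples had 552 CPM, and 125 CPM of Dab2, where the lowest had 380.4 CPM.

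**Figure D5:**
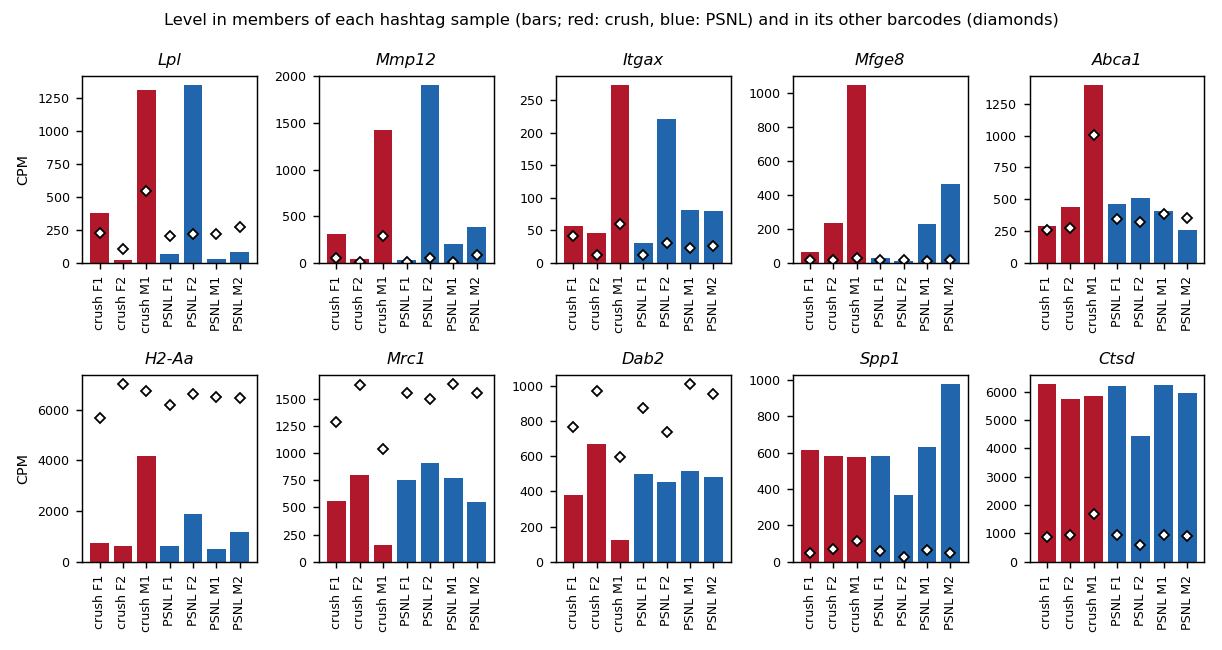
Levels in CPM (vertical axes) of 10 genes in members of each of the 7 hashtag samples (bars, red for crush and blue for PSNL) and in the other barcodes of that sample (diamonds). Lpl, Mmp12 and Itgax peak in crush M1 (598 members) and PSNL F2 (14 members), and Mfge8 and Abca1 in crush M1. Mrc1 and Dab2 are lowest in crush M1, while Ctsd lies between 4421 and 6279.6 CPM.

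Lpl also divided the members within samples. After thinning to 3000 UMIs, 64.9% of the crush M1 members had an Lpl UMI, against none of the 31 in crush F2, where 6 Lpl UMIs were counted before thinning, and 3.03 to 21.4% in the other samples. In the thinned counts of crush M1, the 388 members with Lpl had 1700.2 CPM of Mmp12, 327 CPM of Itgax and 99.7 CPM of Mrc1, and the 210 without had 379, 117 and 287 CPM. In PSNL M2 the 13 members with Lpl had 3897 CPM of Mmp12 and 2205 CPM of Mfge8, and the 66 without had 20.2 and 192 CPM. These were the 2 samples with at least 10 members on each side, and in both of them Apoe and Ctsd were lower with Lpl, while Fabp5 and Plin2 were higher in 1 and lower in the other. Of the samples with fewer, crush F1 (9 with Lpl, 45 without) had 778 and 0 CPM of Mmp12, PSNL F2 (3 and 11) had 6333 and 0 CPM, PSNL F1 (3 and 21) had 0 and 15.9 CPM, and PSNL M1 (2 and 64) had 0 and 255 CPM. This split was chosen after the values were seen and was not tested.

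Between the injuries, no gene of the members passed the threshold. In edgeR, 0 of 6779 genes (0%) differed between PSNL and crush members at an adjusted p under 0.05, with 295 at an unadjusted p under 0.05. DESeq2 called 1 gene (0.0148%), Dock3, a guanine nucleotide exchange factor. Without a filter on low counts, edgeR called 105 of 16478 genes (0.637%). Over 65 genes named here, the PSNL minus crush differences ranged from -2.13 to 2.54 with a median of -0.13. A p that misses the threshold does not show that members of the injuries were alike.

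The difference between members and others was itself compared between the injuries, which was added after the data were seen. It differed for 3 of 11221 genes (0.0267%). For Fn1, fibronectin, the log2 difference between members and others was lower in PSNL than in crush (interaction -5.08, edgeR adjusted p = 0.00161). Its levels in members were 265, 3.09 and 35.1 CPM in crush F1, F2 and M1, and 0, 5.65, 0 and 3.26 CPM in PSNL F1, F2, M1 and M2, and in the others 914, 185 and 111 CPM in crush F1, F2 and M1, and 471, 470.1, 228 and 132 CPM in PSNL F1, F2, M1 and M2. Crush F1 thus had the highest member level, and the PSNL members lay between 0 and 5.65 CPM. The crush F2 members, at 3.09 CPM, lay within that range, so the injuries overlapped, and levels this low rest on few UMIs. Dock3 was at 54.9, 37.1 and 29.1 CPM in crush F1, F2 and M1, and 174, 50.9, 159 and 194 CPM in PSNL F1, F2, M1 and M2 in members, so that crush M1 had the lowest member level and PSNL M2 the highest (interaction 2.84, adjusted p = 0.00161). Mgll was at 83.2, 164 and 175 CPM in crush F1, F2 and M1, and 322, 198, 313 and 326 CPM in PSNL F1, F2, M1 and M2 in members, lower in crush F1 than in any other sample (interaction 1.91, adjusted p = 0.0491). The interaction also rests on the levels of the others, which are not given here by sample for Dock3 and Mgll. In the direct edgeR comparison of PSNL and crush members given above, neither gene was called.

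Male and female members differed in 14 of 7304 genes (0.192%) in an edgeR fit with injury as a term, also added later. Of these, 5 were genes of the X inactivation centre or the Y chromosome. Mfge8 was higher in male members (log2 3.36 ± 0.424, adjusted p = 0.00203), as was Mamdc2 (2.80 ± 0.299, adjusted p = 0.000396), and Ly6e was lower (-2.07 ± 0.314, adjusted p = 0.0117). Mamdc2 was at 44.2, 64.96 and 294 CPM in members of crush F1, F2 and M1 and at 12.4, 0, 104 and 80.3 CPM in PSNL F1, F2, M1 and M2. Ly6e was at 38.9, 18.6 and 7.11 CPM in crush and at 96.1, 67.8, 24.4 and 13.02 CPM in PSNL, so that each male was below each female of the same injury.

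At 1 week the same rule was met by 138 barcodes of the shallower libraries, of which 77 had a single hashtag, 31 were hashtag doublets and 30 had no hashtag called. None of the 77 was assigned to sham. Sham nerves had 0 of 109 barcodes in 1 library, which allows a share of up to 2.75% taken as 3 counts of the total and 3.33% by the exact 95% interval. In the other library they had 0 of 132, which allows up to 2.27% and 2.76% in the same order. Members made up 6.08% of the crush female (20 of 329), 3.23% of the crush male (19 of 588), 3.48% of the PSNL female (23 of 660) and 17.4% of the PSNL male (15 of 86). Under the 3-fold hashtag rule the PSNL male had 51 of 1035 barcodes, or 4.93%, so its value rests on how hashtags were assigned. Spp1 was at 4261 and 4126 CPM in crush female and male members at 1 week and at 16185 and 25541 CPM in PSNL female and male members, each above the 980 CPM that was the highest at 15 weeks. Arg1, arginase 1, was at 0, 64.6, 1166 and 1723 CPM in the same 4 samples. The levels of the PSNL male rest on 15 barcodes and on the same hashtag assignment. Its members held 8 Xist UMIs (35.6 CPM), where crush male members held 0, and PSNL female members held 2 Ddx3y UMIs. Time coincides with batch, depth, Cell Ranger version and the genes listed, so these values stand side by side without a test.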

How the data were processed

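The authors deposited unnormalized counts of UMIs for each gene in each barcode, and of hashtag antibodies, made with Cell Ranger. GRCm38, Cell Ranger 6.0.0 and Seurat 5.1.0 are listed in the submitters' processing notes, and the file headers give a later Cell Ranger version at 15 weeks. The files list 31053 genes at 1 week and 32285 at 15 weeks, and whether introns were counted is not given in the sources used here. The 4 libraries held 2067 to 2675 barcodes at 15 weeks and 1920 and 2471 at 1 week, with medians of 3807 to 7704 UMIs per barcode. Barcodes were assigned with HTODemux (Seurat 5.3.0, quantile 0.99). An unlabelled hashtag was not used, and no doublet caller beyond hashtags was run.

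Counts were summed per hashtag sample over members and over other barcodes (at least 10 members). They were filtered with filterByExpr, scaled by TMM and tested in edgeR 4.0.16 (R 4.3.3) with the quasi-likelihood test and the sample as a block, because both sets come from the same hashtag sample. p-values were adjusted over all genes, after Benjamini and Hochberg. SEs were taken from the log2 difference and its F statistic. The 5 genes of the rule got no call. Members of PSNL and crush were compared without a block. Shares were compared by exact permutation (scipy 1.17.1). The edgeR scripts were tested on simulated data. The members and gene lists were chosen with earlier results of these data known.

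Named genes were the label markers, genes the study names, the 10 largest rises and falls among called genes of 1 sign in each sample and at least 50 CPM in the higher set, up to 4 genes of each list by smallest adjusted p, and Xist and Ddx3y. Others named (H2-Aa, Arg1, Fn1, and genes of the sex, injury and marker comparisons) were picked after their values were seen. Some genes of the lists are not reported here by name.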

Additional observations from a re-analysis of the deposited data

Results flagged for a closer look

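Among the 83 sets of 4 PSNL values examined for a value far from the rest, 5 held one. The usual rate of about 1 in 20 is that of normal values. The sets come from the same 4 samples, so the count is not set against that rate. PSNL F2, with 14 members, gave 4 of them: Lpl at 1351 CPM, Mgll at 198 CPM, Ctsd at 4421 CPM and Hpgd at 45.2 CPM in members. PSNL M1 gave Aff3 at 1.35 CPM, which is 1 UMI, where the other 3 PSNL samples had none.

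The difference between members and others was not the same in the 2 injuries for Fn1 (interaction, PSNL minus crush, -5.08), Dock3 (2.84) and Mgll (1.91), by the edgeR interaction test given above. A hashtag antibody without a label in the 15 week crush library had 110 UMIs and was not used.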

How the results depend on the processing

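For members against other barcodes, genes higher in members numbered 1314 to 1678 over the alternatives. For members against other barcodes, genes lower in members numbered 1544 to 2425. Of the 79 called genes followed through all alternatives, none changed sign, and 2 lost a call: Abca1 in 5 alternatives and Slamf7 against others of like depth. The result for Lpl, members against other barcodes, which was not called, had the opposite sign with no replicate block (0.96), against others with C1q genes (0.50), against others of like depth (0.0703) and with the 3-fold hashtag rule (0.0017). With single samples left out it lay between -0.52 and 0.35, positive without crush F2, PSNL F1, M1 or M2 and negative without the other 3. For PSNL against crush members, the count of genes higher in PSNL was 1 in DESeq2, 28 without the filter and 2 with sex as a term. The count lower in PSNL was 77 without the filter and 3 with sex as a term, and leaving out samples gave 0 to 1 in each direction. With a replicate block on F1, F2 and M1 it stayed at 0. Deviations of same-numbered samples from the means of their injuries correlated at 0.0602, 0.0257 and -0.0281. With so few samples behind each mean, these values cannot decide whether the numbers pair the samples. The share difference between PSNL and crush ranged from -14.7 to 0.700 points with samples left out, the last without crush M1. The share of the PSNL male at 1 week was 4.93% under the 3-fold hashtag rule. PSNL F2 and crush F2, with 14 and 31 members, limit the precision of every level given for them.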
